A study of Mus musculus with 19 samples.

Results

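Germline genes whose promoters are methylated in somatic tissue were examined in mouse myeloid progenitors with and without the DNA methyltransferase Dnmt3a. The list held 40 genes of meiosis, the piRNA pathway, germ cell regulation and the gamete surface. It was given by name, and the levels in these samples did not enter its rule. Each gene was measured through the probe sets annotated to it alone, under its present symbol or an older one, and the mean log2 intensity of those probe sets is called its level here. Of the 40 genes, 32 had such probe sets, among 15781 genes measured in all. Sycp2, Syce1, Slc25a31, Tdrd9, Rpl10l, Hormad2, Mei1 and Fkbp6 matched no probe set and were not analysed here. The 32 genes had 540 probe sets, from 2 for Hormad1 to 34 for Stag3. Methylation itself was not measured on these arrays, so the name of the list describes what is known of these genes and not a reading from these samples.

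Exon arrays were run on 19 samples of total RNA, 20 ng each, from sorted mouse progenitors. The populations are common myeloid progenitors (CMP), which give rise to granulocytes, monocytes, megakaryocytes and red cells, and granulocyte-monocyte progenitors (GMP), which lie one step further toward granulocytes and monocytes. Wild-type cells gave 3 CMP and 4 GMP arrays, and Dnmt3a-/- cells gave 3 of each. GMP carrying PR+/- gave 2 arrays with Dnmt3a intact and 4 with the Dnmt3a-/- genotype added. PR was read as PML-RARA, the fusion protein of acute promyelocytic leukemia, from the title of the series. C57Bl/6J is the strain given for the wild-type and Dnmt3a-/- arrays, and no strain is given for the PR+/- arrays, whose cell type stands in their titles alone. Ages, the way Dnmt3a was deleted and the promoter that drives PR are not given in the sources used here. Nothing in the labels ties each array of a group to an animal of its own, and p-values therefore measure the spread between these samples, which may be technical. In bulk samples such as these, fewer cells of a type and less RNA per cell cannot be told apart.

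Germ cells use a set of genes that other tissues keep silent for life. Many of their promoters are rich in CpG dinucleotides and gain DNA methylation around implantation, when the de novo methyltransferases Dnmt3a and Dnmt3b set the pattern and Dnmt1 later copies it at each division. Promoter methylation holds these genes off together with the non-canonical Polycomb complex of E2f6, Mga and Pcgf6, which reads the E-box CACGTG and the E2f site GCGGGA, and with the histone methyltransferase Setdb1. The comparison asks which of these genes stay silent in adult progenitors that lack Dnmt3a.

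The deleted gene was examined first. The level of Dnmt3a was 7.46 in wild-type CMP and 6.42 in Dnmt3a-/- CMP, 7.44 in wild-type GMP and 6.13 in Dnmt3a-/- GMP, and 7.13 in PR+/- GMP against 6.09 without Dnmt3a. Dnmt3a fell by 1.17 ± 0.09 (log2 difference ± SE) averaged over CMP and GMP (adjusted p = 2.74e-05 by limma). Mpo, myeloperoxidase, was high in every group, with means of 11.66 to 12.96. Of the other measured CMP and GMP markers, Ctsg (8.31 to 11.89), Prtn3 (9.15 to 11.86), Fcgr3 (6.45 to 9.98) and Csf1r (6.42 to 8.47) varied more between groups. Kit, Cd34 and Cebpa varied less. The mean of 4 markers of gonadal somatic cells, Sox9, Amh, Inha and Gata4, lay between 4.31 and 4.86 on all 19 arrays. Array medians of the deposited intensities lay between 53 and 56.8.

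Some differences between arrays run alongside genotype and bear on what follows. The mean of 4 megakaryocyte markers (4 of 4 measured: Pf4, Itga2b, Ppbp and Gp9) was 7.35 to 7.73 in wild-type CMP and 8.96 to 9.38 in Dnmt3a-/- CMP, and 5.69 to 6.37 in wild-type GMP and 7.04 to 8.22 in Dnmt3a-/- GMP. In the PR+/- GMP it was 5.92 to 6.15, and in the PR+/- Dnmt3a-/- GMP 5.25 to 6.41. Y-linked genes (2 of 4 listed genes measured) were low on all 6 Dnmt3a-/- CMP and GMP arrays, at 2.54 to 2.91, and on replicate 3 of wild-type CMP at 3.06, replicate 4 of wild-type GMP at 3.25 and replicate 2 of PR+/- Dnmt3a-/- GMP at 3.12. The mean of 8 measured CMP and GMP markers (of 9) was 9.21 to 9.79 in wild-type CMP and 8.64 to 8.78 in Dnmt3a-/- CMP. Of these markers 4 were called lower there, as were 0.361% of all genes. The mean was 10.03 to 10.11 in wild-type GMP and 10.07 to 10.13 in Dnmt3a-/- GMP, with 1 called lower (0.431% of all genes). In PR+/- GMP it was 9.94 to 9.95, and in PR+/- Dnmt3a-/- GMP 9.25 to 9.78, with 0 called. The mean of 10 measured immediate early and heat shock genes passed 7.5 on 5 arrays, which were replicate 1 of wild-type CMP, replicates 1 and 2 of wild-type GMP and replicates 1 and 2 of PR+/- Dnmt3a-/- GMP. The part of these differences in the results was not tested, beyond the values given with them.

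The promoters of 5 members are shown because they set 3 of the 4 genes with the largest differences without Dnmt3a (Tex14, Stag3 and Tex19.1) beside 2 genes that stayed at background (Dazl and Smc1b). Each is the stretch of up to 250 bases before the gene's start in RefSeq, on GRCm38.p6, written 5′ to 3′ on the gene's own strand with CpG dinucleotides in capitals. Tex14 is at chr11:87404815-87405012 on the plus strand, Stag3 at chr5:138280259-138280508 on the plus strand, Tex19.1 at chr11:121145893-121146142 on the plus strand, Dazl at chr17:50293621-50293870 on the minus strand and Smc1b at chr15:85131958-85132207 on the minus strand.
Tex14: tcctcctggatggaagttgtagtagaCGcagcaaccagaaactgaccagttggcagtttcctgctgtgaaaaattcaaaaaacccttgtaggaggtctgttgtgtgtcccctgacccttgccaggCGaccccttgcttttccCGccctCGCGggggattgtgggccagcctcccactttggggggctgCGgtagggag
Stag3: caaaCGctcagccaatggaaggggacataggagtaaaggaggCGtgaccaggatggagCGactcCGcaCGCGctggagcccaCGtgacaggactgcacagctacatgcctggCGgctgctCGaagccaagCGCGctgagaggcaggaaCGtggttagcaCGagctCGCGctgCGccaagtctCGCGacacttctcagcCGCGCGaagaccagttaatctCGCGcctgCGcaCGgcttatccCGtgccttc
Tex19.1: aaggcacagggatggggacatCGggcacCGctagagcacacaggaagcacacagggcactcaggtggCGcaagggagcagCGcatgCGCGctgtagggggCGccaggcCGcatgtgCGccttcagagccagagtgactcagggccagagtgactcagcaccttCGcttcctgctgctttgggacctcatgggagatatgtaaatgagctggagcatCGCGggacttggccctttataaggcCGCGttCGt
Dazl: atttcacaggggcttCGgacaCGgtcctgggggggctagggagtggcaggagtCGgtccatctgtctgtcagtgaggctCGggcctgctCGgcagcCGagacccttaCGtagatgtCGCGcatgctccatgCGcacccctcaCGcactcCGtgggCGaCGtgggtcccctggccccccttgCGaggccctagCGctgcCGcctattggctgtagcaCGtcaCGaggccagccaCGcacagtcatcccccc
Smc1b: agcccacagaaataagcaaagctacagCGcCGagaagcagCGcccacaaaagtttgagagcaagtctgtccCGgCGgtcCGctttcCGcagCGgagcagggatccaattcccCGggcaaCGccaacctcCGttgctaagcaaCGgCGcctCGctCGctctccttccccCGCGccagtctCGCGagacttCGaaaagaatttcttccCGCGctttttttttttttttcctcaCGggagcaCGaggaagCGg

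By their full windows of 250 bases, genes of both kinds were CpG-rich. Stag3 held 26 CpGs and Tex19.1 held 15, while Dazl held 20 and Smc1b held 25. The window of Tex14 held 17, of which 6 are in the 198 bases printed. The other CpGs of that window lie past the gene's outermost start in RefSeq. Promoters were found for 27 of the 32 measured members; Tex11, Tex15, Tdrd6, Piwil2 and Spo11 are named only. Over the 27 windows of 250 bases the median was 15 CpGs (range 3 to 31), and 24 of them (88.9%) held 10 or more, against 57.4% of the windows of 12609 genes on the arrays. The E-box CACGTG, which reads the same on both strands, stood in 13 of 27 member windows (48.1%) and in 7.3% of the windows of genes on the arrays. The motif GCGGGA, searched on both strands and so also as TCCCGC, stood in 10 of 27 (37%) against 24.2%. Among the 5 genes shown, Stag3 held CACGTG, and Tex14, Tex19.1 and Smc1b held GCGGGA or its reverse complement. These matches describe letters in a window and were not compared with binding.

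Whether a germline gene was above background was read against genes of smell, taste and pheromone receptors, which progenitors do not use. Over 872 such sensory receptor genes, the 95th percentile of the group means was 5.01 in wild-type CMP, 4.86 in Dnmt3a-/- CMP, 4.86 in wild-type GMP, 4.66 in Dnmt3a-/- GMP, 4.76 in PR+/- GMP and 4.74 in PR+/- Dnmt3a-/- GMP. A member at or below that value was counted at background in the group. The 872 sensory receptor genes had 1764 probe sets in all, and the 32 members had 540. The sensory levels thus average fewer probe sets each, which can widen their spread and raise the threshold. By this count 26 of the 32 members were at background in all 6 groups, with or without Dnmt3a and with or without PR. In wild-type CMP 30 of 32 were at background and in Dnmt3a-/- CMP 27, in wild-type GMP 28 and in Dnmt3a-/- GMP 27, and in PR+/- GMP 29 and in PR+/- Dnmt3a-/- GMP 26. The share of all genes at or below these thresholds was not taken. By the mean over all 19 arrays, 36.3% of all genes lay below Tex14 (4.51) and 43.2% below Dmc1 (4.89). Many genes of other kinds would thus also count as at background. The members' median level was between 3.43 and 3.70 in the 6 groups, that of the sensory receptor genes between 2.55 and 2.87, and that of all genes between 5.32 and 5.41. Probes differ in how brightly they bind, so a level ranks no gene above another by amount of RNA.

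**Figure D1:**
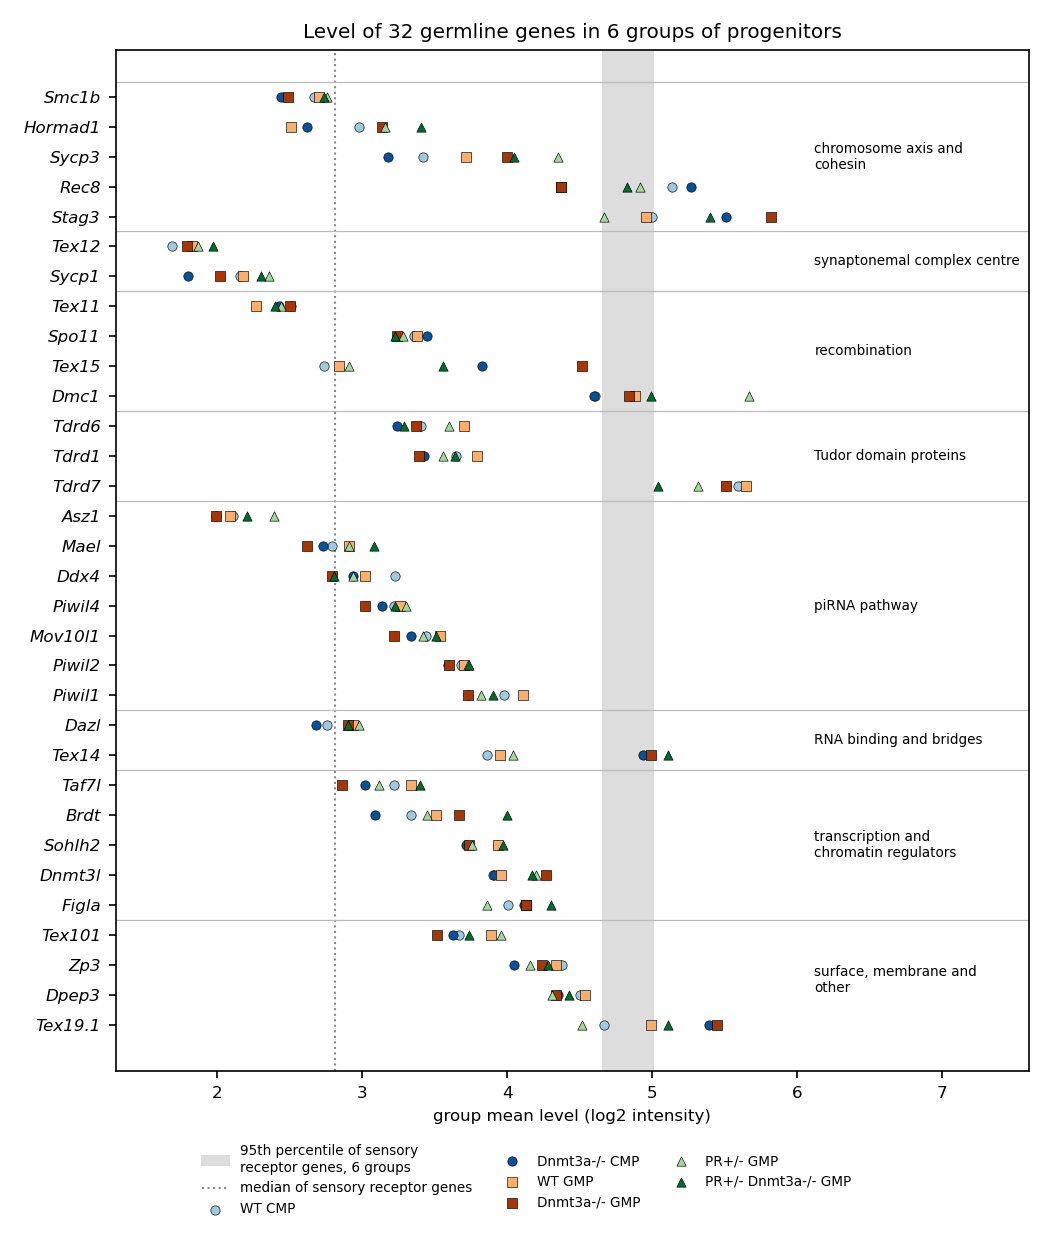
Group mean level (log2 intensity) of each of the 32 measured germline genes in the 6 groups, arranged by role; the grey band spans the background thresholds of the 6 groups (4.66 to 5.01) and the dotted line is the median of the sensory receptor genes. Most members lie left of the band in every group, and Tex14, Tex15, Stag3 and Tex19.1 lie further right in the Dnmt3a-/- groups than in the groups with Dnmt3a.

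The 6 members above background in at least 1 group showed different patterns. Tex14 was above it in the 3 Dnmt3a-/- groups and in none of the others. Stag3 and Tex19.1 were above it in the 3 Dnmt3a-/- groups and also in wild-type GMP. Tdrd7, a Tudor domain protein also found outside the germline, was above it in all 6 groups, Dmc1 in the 4 GMP groups, and Rec8 in both CMP groups and both PR+/- groups. Tex15 moved with Dnmt3a but stayed below the threshold in all 6 groups. The threshold itself differed between groups, at 5.01 in wild-type CMP and 4.86 in Dnmt3a-/- CMP. Tex14 in Dnmt3a-/- CMP, at 4.94, lay between these values and would be at background by the wild-type threshold. In Dnmt3a-/- GMP, at 4.99, Tex14 was also above the wild-type GMP threshold of 4.86. Stag3 in wild-type CMP lay just under the threshold of its group. The patterns in CMP thus depend partly on the threshold. With the 90th percentile as the threshold 20 members were at background in all 6 groups, and with the 99th percentile 30 were.

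Without Dnmt3a, 2 of the 32 germline genes rose and none fell when CMP and GMP were averaged: Tex15, which acts in meiotic double-strand break repair and in piRNA-directed silencing, and Tex14, which keeps the intercellular bridges between germ cells open. Over all genes, 5.75% passed in that comparison in either direction (3.54% higher and 2.21% lower), so the members' share was near the background. In CMP and in GMP taken singly, Tex15 alone passed, 1 of 32, where 1.28% of all genes passed in CMP (0.919% higher and 0.361% lower) and 1.33% in GMP (0.9% higher and 0.431% lower). The unadjusted p was below 0.05 for 4 members in CMP (13.7% of all genes), 9 in GMP (18.9%) and 11 in the average (23.9%). The median log2 difference over the 32 members was -0.1 in the average, beside -0.06 over all genes and -0.22 over the sensory receptor genes, and 21 members lay below 0. All fold values for these genes would rest on groups at or near background, so differences are given on the log2 scale and understate any change in RNA.

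Tex15 separated the genotypes on every array. Its level was 2.91, 2.73 and 2.58 in wild-type CMP and 3.83, 3.54 and 4.12 in Dnmt3a-/- CMP. In GMP it was 3.36, 2.55, 2.65 and 2.79 in the wild type and 4.78, 4.24 and 4.55 without Dnmt3a. Each Dnmt3a-/- array lay above each wild-type array of its cell type, and the Dnmt3a-/- GMP arrays lay above the Dnmt3a-/- CMP arrays. The log2 difference was 1.09 ± 0.22 in CMP (adjusted p = 0.0325 by limma) and 1.69 ± 0.21 in GMP (adjusted p = 0.00214), and 1.39 ± 0.15 averaged (adjusted p = 0.000319). Leaving out 1 array in turn kept the average between 1.31 and 1.47 and called in 13 of 13 fits. The CMP call was lost without wild-type CMP replicate 2 (adjusted p = 0.0942) or 3 (0.123) and without Dnmt3a-/- CMP replicate 1 (0.0938) or 3 (0.158). It was also lost, at differences as large, with medians over probe sets (1.51, adjusted p = 0.062), with the brighter probe sets (1.48, 0.0538) and with the Y-linked level as a covariate (1.18, 0.117).

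Tex14 also separated the genotypes. Its level was 3.76, 3.79 and 4.02 in wild-type CMP and 5.14, 5.09 and 4.58 in Dnmt3a-/- CMP. In GMP it was 4.01, 3.82, 3.92 and 4.04 in the wild type and 5.56, 5.09 and 4.31 without Dnmt3a. No Dnmt3a-/- array reached down to the wild type, and the lowest Dnmt3a-/- array in both cell types was replicate 3. The log2 difference was 1.08 ± 0.25 in CMP (adjusted p = 0.0582 by limma) and 1.04 ± 0.24 in GMP (adjusted p = 0.0517), which miss the threshold of 0.05, and 1.06 ± 0.17 averaged (adjusted p = 0.00462). With the Dnmt3a-/- CMP and GMP arrays of neighbouring title numbers as pairs in a random block, both passed (adjusted p = 0.0495 in CMP and 0.0418 in GMP). The average was called in 13 of 13 fits that left out 1 array. With the Y-linked level as a covariate the average was 0.88 and lost the call (adjusted p = 0.155); the average of Tex15 with that covariate was 1.48 (0.0194).

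Among the 32 members, arrays of the 2 genotypes did not overlap and lay higher without Dnmt3a for 3 in CMP (Tex14, Tex15 and Tex19.1; 10.1% of all genes) and 3 in GMP (Tex14, Tex15 and Dnmt3l; 7.88%). They lay lower for 8 in CMP (13%) and 4 in GMP (8.73%). Only Tex14 and Tex15 lay higher in both cell types, as 435 of all genes did (2.76%), and only Ddx4 lay lower in both, as 350 did (2.22%).

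**Figure D2:**
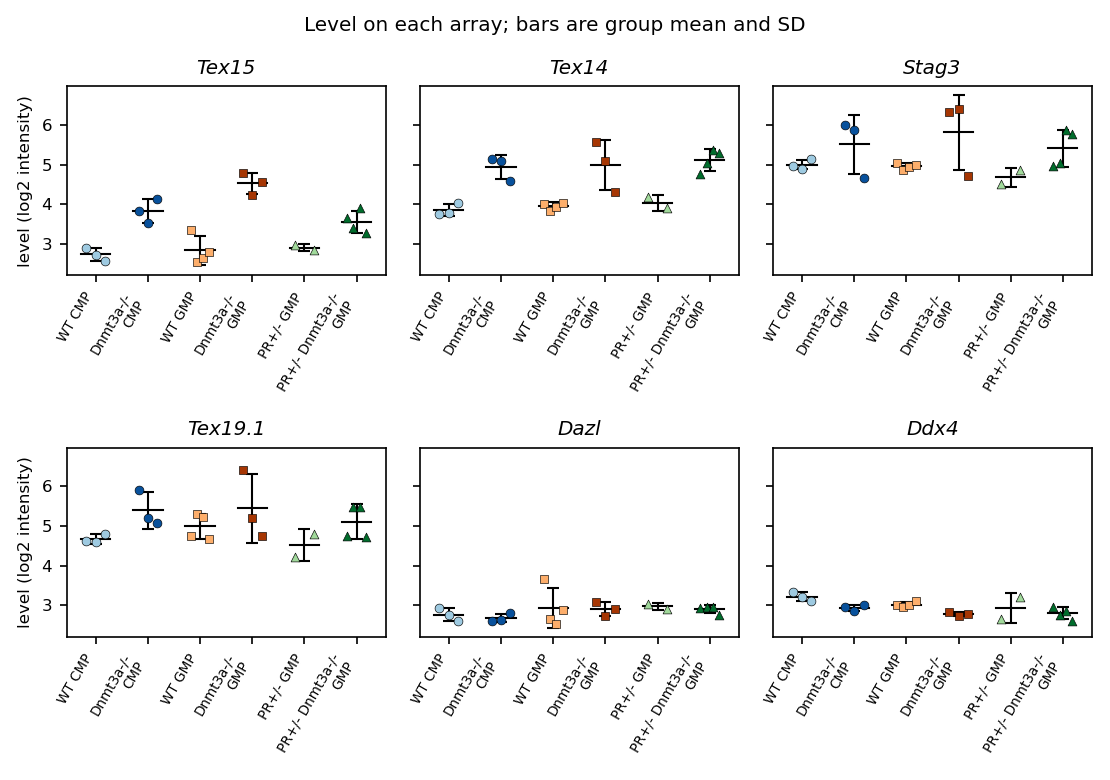
Level (log2 intensity) on each array of the 6 groups for Tex15, Tex14, Stag3, Tex19.1, Dazl and Ddx4; points are arrays, the long bar is the group mean and the short bars are the SD. Tex15 and Tex14 are higher on every Dnmt3a-/- array than on the matching arrays with Dnmt3a, replicate 3 of the Dnmt3a-/- CMP and GMP lies below the wild-type arrays for Stag3, and Dazl and Ddx4 stay between 2.53 and 3.66.

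Stag3, the meiosis-specific subunit of cohesin, was high on some Dnmt3a-/- arrays and not on others. Its level was 4.96, 4.90 and 5.13 in wild-type CMP and 5.99, 5.87 and 4.66 in Dnmt3a-/- CMP. In GMP it was 5.04, 4.85, 4.94 and 4.99 in the wild type and 6.32, 6.4 and 4.72 in Dnmt3a-/- GMP. Replicates 1 and 2 were above every wild-type array in both cell types, and replicate 3 was below every wild-type array in both. The SD was 0.12 in wild-type and 0.73 in Dnmt3a-/- CMP, and 0.08 and 0.95 in GMP, and the averaged difference of 0.68 ± 0.27 missed the threshold (adjusted p = 0.152 by limma). The Dnmt3a-/- CMP and GMP arrays of the same replicate carry neighbouring numbers in their titles. Their deviations from the group means over all genes correlated at 0.121, 0.139 and 0.171, against -0.148 to 0.03 for the other pairs. Deviations within a group cancel out, so positive values in some pairs go with lower values in others, and this contrast is partly built in. The labels do not say that arrays of the same replicate came from 1 animal. Without both replicate 3 arrays, an alternative chosen after these values were seen, Stag3 differed by 0.93 in CMP (adjusted p = 0.0147), 1.40 in GMP (0.00197) and 1.17 averaged (0.000211); without Dnmt3a-/- GMP replicate 3 alone the average was 0.96 (0.0204). With replicate 1 or replicate 2 left out of both groups the average was 0.44 (0.503) and 0.45 (0.464).

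Tex19.1, which restrains retrotransposons in germ cells, also varied widely between the Dnmt3a-/- arrays. Its level was 4.63, 4.59 and 4.81 in wild-type CMP and 5.92, 5.19 and 5.07 in Dnmt3a-/- CMP. In GMP it was 4.76, 5.31, 5.22 and 4.68 in the wild type and 6.42, 5.19 and 4.74 without Dnmt3a. The arrays overlapped in GMP and did not overlap in CMP, and replicate 1 was the highest Dnmt3a-/- array in both. The averaged difference was 0.59 ± 0.24 (adjusted p = 0.164 by limma), and without Dnmt3a-/- GMP replicate 1 the GMP difference went from 0.46 to -0.03.

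**Figure D3:**
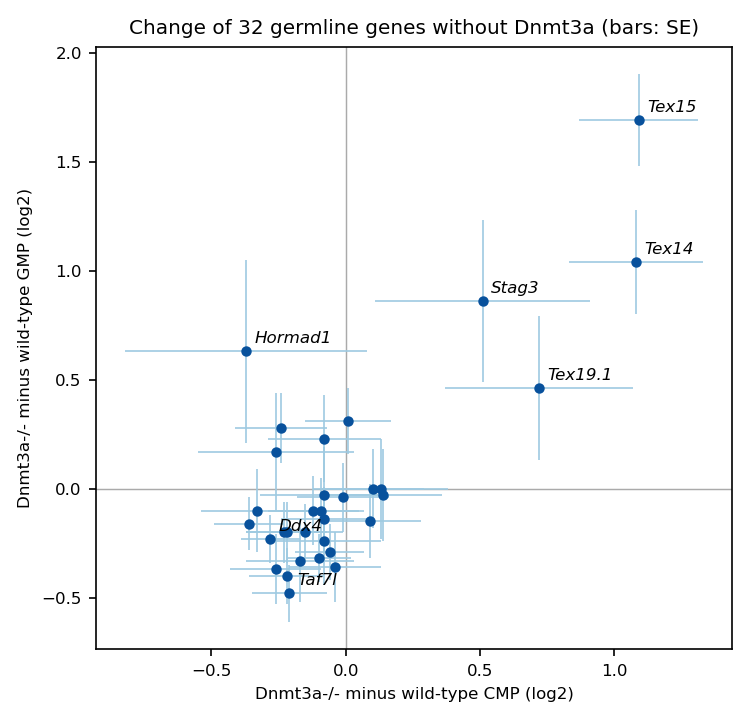
Log2 difference between Dnmt3a-/- and wild type in CMP (horizontal axis) and in GMP (vertical axis) for the 32 germline genes, with bars of 1 SE. Tex15 (1.09 and 1.69) and Tex14 (1.08 and 1.04) stand at the upper right with Stag3 and Tex19.1 below them, and most other members lie at or a little below 0 on both axes.

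The probe sets of each gene were compared next; their exon positions were not used here. For Tex14, 28 of 29 probe sets lay above 0 in the averaged difference, with a median of 0.96, and 13 lay above 1. For Tex15, 10 of 11 lay above 0 with a median of 1.39, and 7 lay above 1. For Stag3, 31 of 34 lay above 0 with a median of 0.65, and 9 lay above 1. In these 3 genes most of the probe sets lay higher without Dnmt3a. For Tex19.1, 5 of 7 lay above 0 with a median of 0.27, and 1 lay above 1. That probe set went from 3.20 to 4.75 on the wild-type arrays to 4.30 to 9.72 on the Dnmt3a-/- arrays, and without it the averaged difference of Tex19.1 was 0.14. The same step left Tex14 at 0.99, Tex15 at 1.21 and Stag3 at 0.66. Over the 28 other members 1 of 459 probe sets lay above 1, in Spo11. Probe sets higher on all 6 Dnmt3a-/- arrays than on all 7 wild-type arrays numbered 7 of 540, of which 4 were in Tex14 and 3 in Tex15. In the sensory receptor genes they numbered 2 of 1764, but those genes had a median averaged difference of -0.22. The share over all probe sets on the arrays was not taken, so 7 of 540 is not read as an excess. The single Tex14 probe set that rose most lay at 1.81 to 2.89 on the wild-type arrays and at 4.48 to 6.67 on the Dnmt3a-/- arrays.

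**Figure D4:**
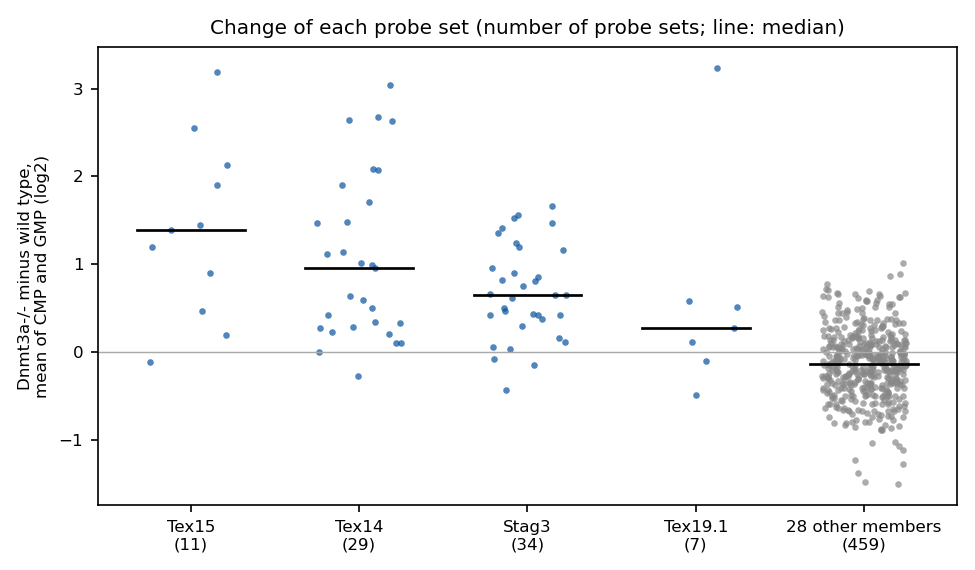
Averaged log2 difference between Dnmt3a-/- and wild type for every probe set of Tex15 (11), Tex14 (29), Stag3 (34), Tex19.1 (7) and the 28 other members (459); each point is 1 probe set and the line is the median. Tex15, Tex14 and Stag3 have most probe sets above 0 (medians 1.39, 0.96 and 0.65), and Tex19.1 has 1 probe set at 3.24 with the others between -0.49 and 0.58.

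The other members are described by role, in the averaged comparison. Of the 5 genes of the meiotic chromosome axis and cohesin, 0 passed, with differences of -0.22 to 0.68 (lowest adjusted p 0.152 by limma, for Stag3). Stag3 was the highest of them, while its cohesin partner Smc1b gave -0.22 ± 0.10 and Rec8, the meiotic kleisin, gave 0.07 ± 0.17. Sycp3, the axis protein, gave 0.02 ± 0.12. Hormad1, which marks unsynapsed axes, gave 0.13 ± 0.31 over its 2 probe sets. Of the 2 genes of the synaptonemal complex centre, Sycp1 gave -0.26 ± 0.09 and Tex12 gave 0.05 ± 0.15. Among the 4 recombination genes Tex15 was the only one called. Spo11, which makes the meiotic breaks, gave -0.03 ± 0.13, Dmc1, the meiotic recombinase, gave -0.02 ± 0.12, and Tex11 gave 0.08 ± 0.14.

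The 7 piRNA genes and the 3 Tudor domain genes all lay below 0, with 0 of 10 called. Differences ran from -0.31 to -0.10 in the piRNA group, which holds the Argonautes Piwil1, Piwil2 and Piwil4, the helicases Ddx4 and Mov10l1, and the cofactors Asz1 and Mael. Ddx4 gave -0.25 ± 0.08 (adjusted p = 0.073 by limma) and Piwil1 gave -0.31 ± 0.12 (0.129). Tdrd1, a Tudor domain scaffold of the piRNA granule, gave -0.31 ± 0.10 (0.0792). These small negative values are of the size of the median of the sensory receptor genes, -0.22.

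Dazl, the RNA-binding protein often used to report germline silencing, did not pass. Its level was 2.93, 2.76 and 2.60 in wild-type CMP and 2.61, 2.63 and 2.81 in Dnmt3a-/- CMP. In GMP it was 3.66, 2.66, 2.53 and 2.89 in the wild type and 3.08, 2.73 and 2.90 without Dnmt3a. The arrays overlapped in both cell types, and the averaged difference was -0.05 ± 0.16 (adjusted p = 0.863 by limma). Among the 5 regulators, differences ran from -0.34 for Taf7l, a germ cell TFIID subunit (SE 0.10, adjusted p = 0.0553), to 0.16 for Dnmt3l, the cofactor of de novo methylation. Brdt, the testis bromodomain protein, gave -0.05 ± 0.20 but varied between the arrays without Dnmt3a. Its level was 2.91, 3.40 and 2.94 in Dnmt3a-/- CMP and 3.17, 4.53 and 3.32 in Dnmt3a-/- GMP. In PR+/- Dnmt3a-/- GMP it was 3.50, 4.81, 4.53 and 3.17, while no array with Dnmt3a passed 3.84. Dnmt3a loss in PR+/- GMP gave 0.55 ± 0.45 for Brdt (adjusted p = 0.736 by limma). The oocyte factors Sohlh2 and Figla gave -0.21 ± 0.10 and 0.05 ± 0.13 in the average. Of the remaining genes, the zona pellucida gene Zp3 gave -0.22 ± 0.14, Tex101, a germ cell surface protein, gave -0.20 ± 0.12, and Dpep3 gave -0.18 ± 0.10.

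No member was called between wild-type GMP and wild-type CMP by limma, where 4.3% of all genes were, and 1 member had an unadjusted p below 0.05 (16.3% of all genes). That member was Rec8, with 5.52, 5.0 and 4.91 in wild-type CMP and 4.06, 4.33, 4.53 and 4.54 in wild-type GMP. The groups did not overlap, and the difference was -0.78 ± 0.23 (adjusted p = 0.0869 by limma). Arrays lay apart with GMP lower for 2 members, Rec8 and Ddx4 (6.65% of all genes), and with GMP higher for 0 (7.2%). Rec8 in Dnmt3a-/- cells lay at 5.34, 4.68 and 5.80 in CMP and at 4.39, 4.25 and 4.47 in GMP, so the CMP arrays were again above the GMP arrays. Without Dnmt3a-/- CMP replicate 2, Rec8 passed (adjusted p = 0.039). limma's test of a different effect of Dnmt3a loss in GMP and CMP called no member and 0% of all genes, and 1 member had an unadjusted p below 0.05 (6.86% of all genes).

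In the PR+/- GMP, Dnmt3a loss gave the same direction for Tex14, Tex15 and Stag3, though no gene of the 15781 passed by limma (0%) and 1256 had an unadjusted p below 0.05 (7.96%), among them 4 members. Tex14 was 4.18 and 3.90 in PR+/- GMP and 4.76, 5.05, 5.36 and 5.28 in PR+/- Dnmt3a-/- GMP. Tex15 was 2.97 and 2.84 against 3.65, 3.41, 3.90 and 3.27. Stag3 was 4.50 and 4.85 against 4.96, 5.04, 5.86 and 5.76. For these 3 members the groups did not overlap and the Dnmt3a-/- arrays were higher, as in 8.28% of all genes; for 3 members, Tex101, Tdrd6 and Dmc1, they were lower (12.3%). Replicates 3 and 4 were the highest for Stag3 and Tex14. The log2 differences were 1.08 ± 0.21 for Tex14 (adjusted p = 0.478 by limma), 0.65 ± 0.21 for Tex15 (adjusted p = 0.62) and 0.73 ± 0.30 for Stag3 (adjusted p = 0.62). Tex19.1 lay in the same direction, at 0.59 ± 0.30 (adjusted p = 0.647 by limma), but its arrays overlapped. Probe sets above 1 in this comparison numbered 13 of 29 for Tex14, 3 of 11 for Tex15 and 15 of 34 for Stag3. The Tex15 probe sets with the largest averaged differences over CMP and GMP (3.19, 2.56 and 2.13) gave 0.39, 0.16 and 0.62 here. Tex14 and Tex15 were thus higher without Dnmt3a, with no overlap of arrays, in CMP, GMP and PR+/- GMP, as were 45 of all genes (0.285%). The test of a different effect in PR+/- and wild-type GMP gave -1.03 for Tex15 (adjusted p = 0.23) and 0.04 for Tex14 (0.969); it called 0.0317% of all genes and no member, and 4 members had an unadjusted p below 0.05 (14% of all genes).

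In the PR+/- arrays, the megakaryocyte markers had a mean of 6.03 with Dnmt3a and 5.91 without it. Itga2b (8.14 and 7.30) and Gp9 (5.73 and 5.52) were lower without Dnmt3a. Pf4 (5.08 and 5.58) and Ppbp (5.18 and 5.24) were higher. Replicates 1, 3 and 4 of PR+/- Dnmt3a-/- GMP had Y-linked levels of 6.73 or more, as had both PR+/- GMP arrays. Tex14 on these replicates, at 4.76, 5.36 and 5.28, was above both PR+/- GMP arrays. Whether the Y-linked or megakaryocyte levels bear on Tex14 was not tested. Of the 5 arrays of high immediate early genes, the comparison averaged over CMP and GMP used only the wild-type ones. These were replicate 1 of wild-type CMP and replicates 1 and 2 of wild-type GMP. Leaving them out was an alternative chosen after the values were seen. The averaged difference was then 1.49 for Tex15 (adjusted p = 0.000835 by limma) and 1.02 for Tex14 (0.0253). Taf7l then also passed, at -0.41 (0.0357).

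Against wild-type GMP, the PR+/- GMP differed in no member by limma, where 3.07% of all genes passed, and 3 members had an unadjusted p below 0.05 (17.4% of all genes). Arrays of the 2 groups lay apart with PR+/- higher for 2 members, Dmc1 and Rec8 (16.1% of all genes), and lower for 4, Stag3, Tdrd7, Piwil1 and Dpep3 (12.3%). Dmc1 was 4.70, 4.78, 5.05 and 4.98 in wild-type GMP and 5.94 and 5.40 in PR+/- GMP. The groups did not overlap, and the difference of 0.80 ± 0.23 missed the threshold (adjusted p = 0.0794). In PR+/- Dnmt3a-/- GMP, Dmc1 was 4.73, 5.12, 4.74 and 5.35, below both PR+/- arrays, with a difference of -0.69 ± 0.25 (adjusted p = 0.62); both comparisons share the 2 PR+/- arrays. Rec8 was 4.83 and 5.01 in PR+/- GMP, above all 4 wild-type GMP arrays, at 0.56 ± 0.25 (adjusted p = 0.26). Tdrd7, above background in every group, was 5.33 and 5.31 in PR+/- GMP and 5.73, 5.98, 5.42 and 5.45 in wild-type GMP. The labels of the PR+/- arrays are written in another form and give no run or batch, so a batch of these arrays, if there was one, and PR cannot be told apart.

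Genes that work around these members were examined as 3 lists. Of 8 genes of DNA methylation and demethylation, 6 were measured, and without Dnmt3a only Dnmt3a itself changed in the average (0 higher, 1 lower). Of 14 repressors of germline genes, among them E2f6, Mga, Pcgf6 and Setdb1, 13 were measured, and 0 were higher and 0 lower in the average, with a median difference of -0.09 and 1 unadjusted p below 0.05. Against wild-type GMP, the PR+/- GMP had 1 higher, the Polycomb ubiquitin ligase Rnf2 at 0.85 ± 0.21 (adjusted p = 0.0449 by limma), and 1 lower, Setdb1 at -0.64 ± 0.16 (0.0444). The median of the 13 in that comparison was -0.31, and 6 had an unadjusted p below 0.05, where 3.07% of all genes were called and 17.4% had such a p. Of 66 other germline genes, 42 were measured, and 0 were higher and 1 lower in the average. That gene was Tdrd12, a Tudor domain helicase of the piRNA pathway, which fell by 0.59 ± 0.14 (adjusted p = 0.0267 by limma). The median of the 42 was -0.13, and 10 had an unadjusted p below 0.05, where 5.75% of all genes were called and 23.9% had such a p.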

How the data were processed

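RNA extracted with TRIzol was amplified by WT-Ovation and carried a biotin label, per the labels' protocols. Each deposited value is an intensity of 1 exon-level probe set in 1 sample, not on a log scale, and the authors' values span 1.34 to 16208. The submitters' processing notes name RMA, Partek and mm9 with no role or version. The choice of the 194293 probe sets, and whether the 19 arrays were normalised in a single step, are not given in the sources used here. No value column was without a sample (0).

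The platform annotation gave 1 gene symbol to 179496 probe sets, several to 1328 and none to 13469, and the last 2 kinds were left out. Older symbols were updated through RefSeq (13727 found as annotated, 2039 updated, 37 kept). Intensities were log2-transformed and averaged per gene (15781 genes, median 9 probe sets). Groups were compared with limma 3.58.1 in R 4.3.3 (lmFit and eBayes, two-sided), with p-values adjusted by the Benjamini-Hochberg method over all genes and called below 0.05. The CMP and GMP comparisons used the 13 wild-type and Dnmt3a-/- arrays, Dnmt3a loss in PR+/- GMP the 6 PR+/- arrays, and PR effects the 13 GMP arrays. The number of arrays limits the precision. Scripts were tested on simulated data.

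The members, lists, promoters shown and named genes were chosen with earlier results of these data known. Per-array values were given for called members, for the 6 members of highest mean level and for the 4 of largest averaged change. Those of Dazl and Brdt were added after values were seen, as were the roles. Alternatives covered the gene summary, the scaling, dim probes, weights, samples and covariates.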

Additional observations from a re-analysis of the deposited data

Results flagged for a closer look

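In groups of 4 arrays, the highest or lowest array was set against its group for each of the 32 members, 64 member and group combinations in all, and 3 stood apart; chance flags about 1 in 20 such groups. Dazl on replicate 4 of PR+/- Dnmt3a-/- GMP was the lowest at 2.75, where the other arrays of the group lay between 2.94 and 2.97. Piwil4 on replicate 2 of PR+/- Dnmt3a-/- GMP was the lowest at 2.97, where the others lay between 3.30 and 3.32. Tex11 on replicate 1 of wild-type GMP was the highest at 2.48, where the others lay between 2.18 and 2.22. All of these levels lie below the background threshold of their group.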

How the results depend on the processing

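Tex15 in GMP and in the average, and Tex14 in the average, kept their direction under all alternatives run. The number of members called moved as follows, and the cause was not tested. In CMP (1 member) it was 0 with medians over probe sets or with the Y-linked level as a covariate, and 2 with the filter on dim genes, array weights, all 19 arrays in 1 fit, or pairs as a random block. In GMP (1) it was 2 with quantile scaling, the filter, all 19 arrays or pairs, and 6 with array weights (3 higher and 3 lower). In the average (2) it was 9 with array weights (3 higher and 6 lower) and 1 with the Y-linked covariate. The pairs changed no other call of a named member than those of Tex14. For PR+/- against wild-type GMP (0) it was 1 with all 19 arrays, Dmc1 at 0.80 (adjusted p = 0.035 by limma). Leaving out 1 array gave 0 to 2 in CMP, 1 to 3 in GMP, 2 to 3 in the average and 0 to 1 between GMP and CMP. Leaving out the same replicate of Dnmt3a-/- CMP and GMP gave 0 to 2 in CMP, 1 to 3 in GMP and 2 to 3 in the average. Tex19.1 in GMP ranged from -0.03 (without Dnmt3a-/- GMP replicate 1) to 0.81 with 1 array left out, and was -0.03 without replicate 1 of Dnmt3a-/- CMP and GMP.

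PR+/- and PR+/- Dnmt3a-/- GMP share replicate numbers 1 and 2, whose deviations correlated at 0.0774 and 0.0169. With 2 PR+/- GMP arrays, the deviations of 1 mirror those of the other. The correlations therefore cannot tell whether arrays of the same number belong together, and the labels do not say. With the replicate block, 0 members and 0 genes were called; Tex14 was 0.87 (adjusted p = 0.219 by limma) and Tex15 was 0.63 (0.249).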
